A study of Mus musculus with 4 samples.

Results

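The genes described here encode the mitochondrial respiratory chain and ATP synthase. Members were chosen by symbol: every gene of the table whose symbol starts with Nduf, Uqcr, Atp5, Cox4 to Cox8 or mt-, or is Sdha, Sdhb, Sdhc, Sdhd, Cyc1 or Cycs. The rule took 93 of 18276 genes, all encoded in the nucleus: 38 of complex I, 8 complex I assembly factors, 4 of complex II, 9 of complex III, cytochrome c, 16 of complex IV and 17 of complex V. The genes encoded in mitochondrial DNA were not analysed here.

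The libraries hold poly(A) RNA of osteoclast progenitors from fresh bone marrow, defined in the sort by lacking B220, CD3 and Mac-1 and by carrying CD115, the receptor for the cytokine M-CSF. Ptip_KO mice carried floxed alleles of Ptip (gene symbol Paxip1, a subunit of histone methyltransferase complexes) with the Mx-1Cre driver (genotype Ptip flox/flox Mx-1Cre), and WT mice carried Mx-1Cre without a floxed allele, so the recombinase was common to both groups. Mx-1Cre is driven by an interferon-inducible promoter, so deletion is not limited to the sorted cells. Mice of both groups were of strain B6;129. Each group has 2 libraries. The series calls the replicates independent, but the labels name no animals and no ages, so the p-values cover the spread among these 4 samples, part of which may be technical.

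In the respiratory chain, complex I (NADH dehydrogenase) and complex II (succinate dehydrogenase) pass electrons to coenzyme Q, and complex III passes them on to cytochrome c, a small soluble carrier between the membranes. Complex IV (cytochrome c oxidase) hands them to oxygen. The proton gradient that complexes I, III and IV build drives ATP synthase, also called complex V. Osteoclasts are rich in mitochondria, and cytochrome c released from mitochondria also starts the caspase cascade of apoptosis.

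The libraries held 67592972 to 77773478 reads, so that the upper limit for a count of 0 (3 reads) corresponded to 0.0380 to 0.0428 CPM (reads scaled to the effective library size). This limit covers counting error only. Paxip1, the targeted gene, was at 5.10 and 3.73 CPM after deletion, against 106 and 103 in WT. WT replicate 2 stood apart: it had 298 CPM of Xist, transcribed from the inactive X chromosome, where the others had 0.0428 to 0.0814 CPM. Of Ddx3y, a gene of the Y chromosome, it had 0.101 CPM, where the others had 69.1 to 89.6 CPM. By these genes WT replicate 2 is female and the others are male, so the WT group mixes the sexes and Ptip_KO does not. Results for several members are also given without this library, and most of those for other genes are not. Of 6 genes listed as markers of the sorted progenitors, 0 were called higher and 2 lower by limma, beside 2.43% and 3.86% of all tested genes. The list includes Itgam, of the Mac-1 that the sort excluded. The genes called lower were Kit, at 14.4 and 16.1 CPM in Ptip_KO against 49.5 and 73.1 in WT (limma adjusted p = 0.00908), and Flt3. Flt3 was at 42.8 and 34.5 CPM in Ptip_KO against 67.6 and 77.8 in WT (limma adjusted p = 0.0244). The sort marker Csf1r, which encodes CD115, did not pass, at 825 and 782 CPM in Ptip_KO against 677 and 606 in WT, the T cell gene Cd3e reached at most 0.190 CPM, and Itgam, which encodes a chain of Mac-1, was at 35.1 to 42.1 CPM.

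Across the chain, the transcripts of 1 member, Cycs, differed between the groups, and the other tested members did not pass the test. Of the 93 members, 90 had at least 1 CPM in at least 2 libraries and were tested with all 12357 such genes. With limma on log2(CPM + 1) and Benjamini-Hochberg adjustment at 0.05, 0 members were higher and 1 was lower in Ptip_KO. Among all tested genes, 6.29% were called, 2.43% higher and 3.86% lower. At an unadjusted limma p under 0.05 there were 9 members, beside 23.8% of all tested genes. These were Ndufb3 and Ndufb6 of complex I, Sdhd of complex II, Cyc1 of complex III, Cycs, Cox4i2 and Ndufa4 of complex IV, and Atp5k and Atp5e of complex V, with 0 assembly factors. edgeR's quasi-likelihood test on the recovered reads likewise called Cycs and no other member, where it called 5.34% of all genes. DESeq2 called 15.4% of all genes, and among the members 5 lower (Cycs, Ndufb3, Atp5k, Atp5e and Sdhd) and 1 higher (Cox4i2, which passed the filter only through Ptip_KO).

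The members' differences were small and mostly negative. The log2 fold change was negative for 71 of 90 members, beside 49.5% of all tested genes. Its median over the members was -0.08, with quartiles of -0.15 and -0.02, beside a median of 0.00 with quartiles of -0.16 and 0.16 over all tested genes. The negative count was 42 of 90 if WT replicate 1 was left out and 82 of 90 if WT replicate 2 was, with medians of 0.01 and -0.17, so the sign of the median rests on WT replicate 1. With each library rescaled to a common sum, 56 of 90 were negative, beside 40.8% of all genes, and the median was -0.03. The precision was high enough to bound most members: for 83 of 90, the 95% interval of the limma estimate lay within a 1.5-fold change in either direction, beside 64.5% of all tested genes. The other members were Atp5k, Atp5s, Cox4i2, Cyc1, Cycs, Ndufb3 and Ndufb6.

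**Figure D1:**
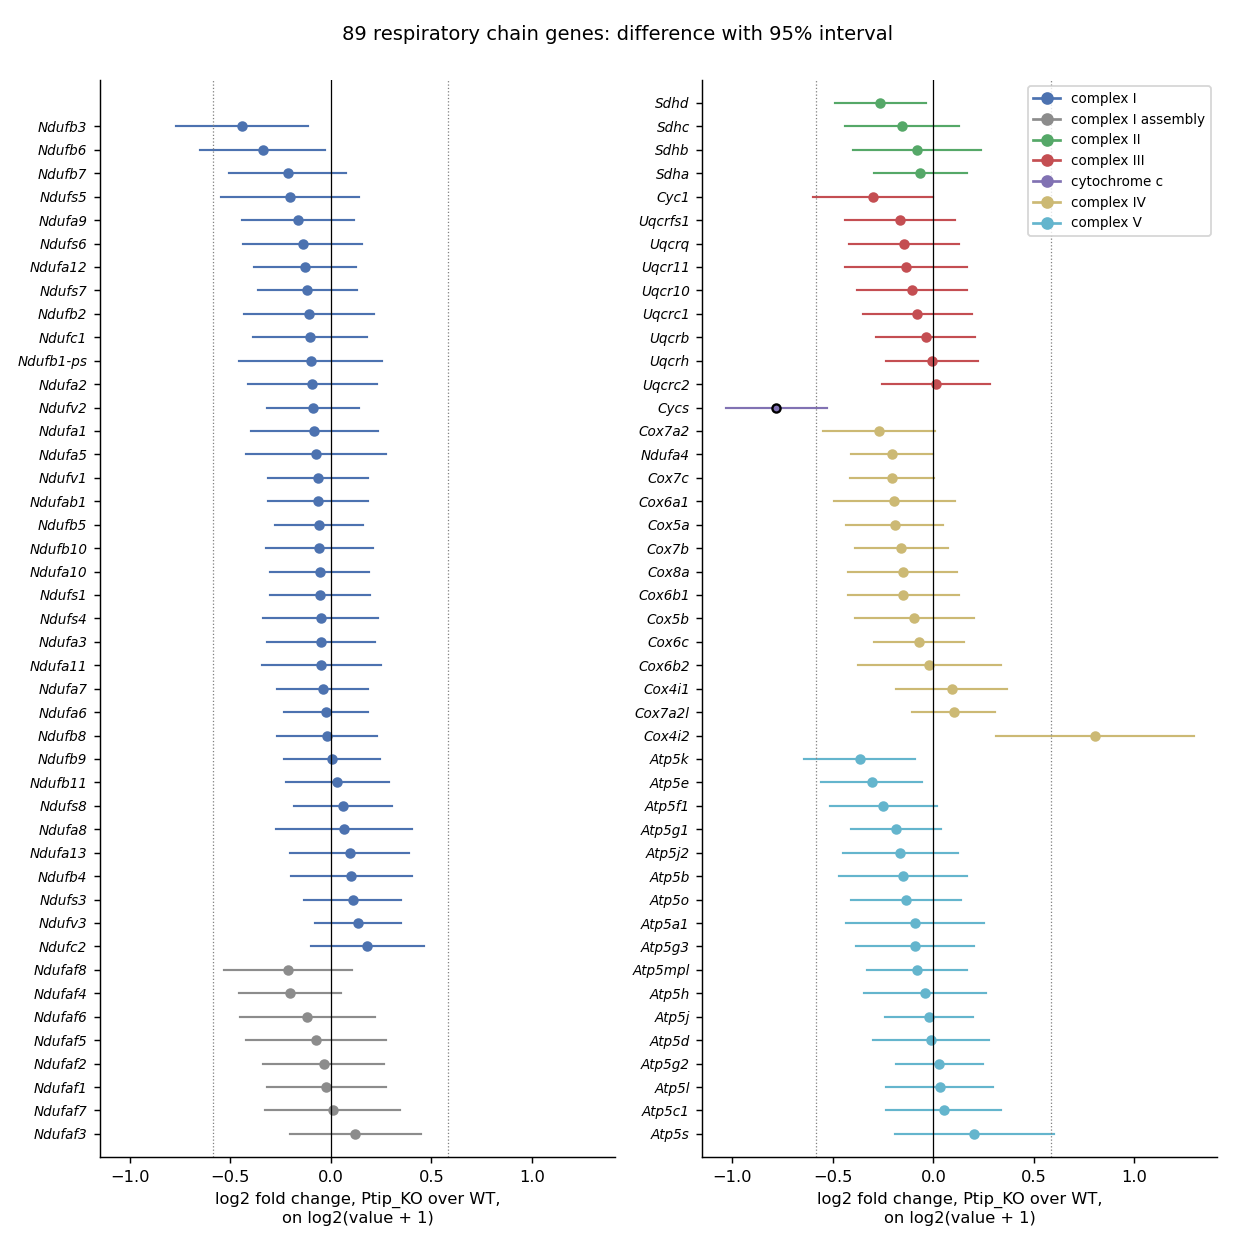
Log2 fold change (Ptip_KO over WT, on the log2(CPM + 1) scale, horizontal axis) of 89 of the 90 tested members, grouped and coloured by complex, with the limma 95% interval as a line. Dotted lines mark a 1.5-fold change, and the black ring marks Cycs, the member past the threshold, at -0.78. Cox4i2, which did not pass, lies at 0.80, and the other members lie between -0.44 (Ndufb3) and 0.20 (Atp5s).

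Summed over all 93 members, the level was 10186 and 9333 CPM in Ptip_KO against 11136 and 9734 in WT, the 2 values of each group in the order of the replicate numbers. The groups overlapped, with Ptip_KO replicate 1 above WT replicate 2. The means were 9760 ± 603 CPM and 10435 ± 991 CPM (SD, n = 2 each), and the exact permutation p was 0.667, 2-sided, where 2 against 2 libraries cannot go below 0.333. Within each group the libraries differed in 1 direction along nearly the whole chain: replicate 1 was above replicate 2 for 88 of 93 members in Ptip_KO and for 89 of 93 in WT. The median log2 difference of replicate 1 from replicate 2 was 0.12 in Ptip_KO and 0.18 in WT, beside 0.03 and 0.04 over all tested genes.

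WT replicate 1 was the highest library at the median of every complex, and Ptip_KO replicate 2 was the lowest for complexes I to V, while WT replicate 2 was the lowest for the complex I assembly factors. Levels did not overlap between groups for 19 members lower in Ptip_KO (21.1%) and for 5 higher, beside 27.3% lower and 27.7% higher of all tested genes, so neither share of the members exceeded the background. The 5 include Cox4i2, which passed the filter only through Ptip_KO.

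**Figure D2:**
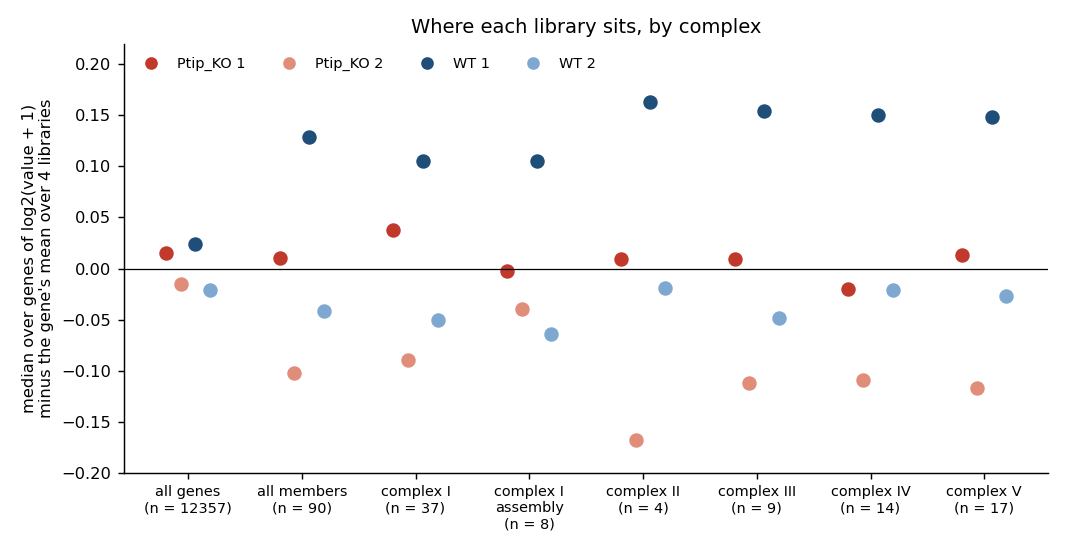
Median over genes of log2(CPM + 1) minus the gene's own mean over the 4 libraries (vertical axis), for all tested genes, all members and each complex, with 1 point per library. For all genes the libraries lie between -0.02 and 0.02, and for the members between -0.10 (Ptip_KO 2) and 0.13 (WT 1).

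Cytochrome c was the exception. Cycs encodes somatic cytochrome c, the carrier between complexes III and IV. The Ptip_KO libraries held 88.8 and 82.3 CPM of it, and the WT libraries 157 and 139. Both Ptip_KO libraries were below both WT libraries, and the gap between the groups was larger than that within either. Cycs fell in Ptip_KO, to a mean of 85.5 ± 4.63 CPM against 148 ± 13.2 (SD, n = 2 each), and was 1.73-fold higher in WT. The log2 fold change was -0.78 (standard error 0.101, 95% interval -1.03 to -0.53, limma adjusted p = 0.0165). It was past the threshold in every setting run, with adjusted p-values between 5.75e-12 (DESeq2) and 0.0498 (limma without Ptip_KO replicate 2), and without WT replicate 2 the log2 fold change was -0.87 (limma adjusted p = 0.000845).

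Near-identical copies among the annotated transcripts exist for 27 members, among them Ndufb3, Atp5k, Cox7c, Cox7b, Cox7a2l, Atp5f1, Atp5g1 and Atp5g2, whose levels are uncertain where reads were split. Cycs has 4 such copies. The copy listed in the table, Gm10053, matches Cycs at 100% over 327 bases and was at 1.46 and 1.54 CPM in Ptip_KO against 3.08 and 2.80 in WT. Summed over both genes, the level was 90.3 and 83.8 CPM in Ptip_KO against 160 and 141 in WT. The reads behind Cycs itself were 6760, 5763, 11585 and 10924 in Ptip_KO replicates 1 and 2 and WT replicates 1 and 2. Cycs lies on chromosome 6 from 50562563 to 50566538 on the minus strand (GRCm38), with no exon of another gene overlapping its own.

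Markers of other cells moved with the comparison. Summed over 9 of 10 listed red cell markers, the level was 790 to 1075 CPM in Ptip_KO and 2018 to 4726 CPM in WT, with WT replicate 2 the higher. Summed macrophage markers (8 genes) were at 188 to 218 CPM in Ptip_KO and 219 to 352 CPM in WT, and dendritic cell markers (6 genes) at 117 to 121 CPM and 241 to 332 CPM. By limma, 6 of 9 tested red cell, 6 of 8 macrophage and 4 of 6 dendritic cell markers were called lower, beside 3.86% of all tested genes. Flt3 was among the dendritic cell markers called lower, as in the progenitor list. Of the osteoclast markers, 1 of 2 tested was called lower. Of the B cell markers, 1 of 2 tested was called higher, beside 2.43% of all tested genes. Summed neutrophil markers (8 genes), of which Mpo holds most, overlapped at 9380 to 10179 CPM in Ptip_KO and 8350 to 12598 CPM in WT. However, 7 of 8 had negative log2 fold changes, and the median was -1.22. Of the 8, 4 were lower without overlap, beside 27.3% of all tested genes, and 1, Padi4, was called lower. T cell markers (5 genes) overlapped, at 0.512 to 1.36 CPM and 1.25 to 2.32 CPM, and B cell markers (5 genes) were at 51.8 to 55.8 CPM and 29.3 to 45.8 CPM. Osteoclast markers (3 of 5 listed) were at 39.6 to 139 CPM in Ptip_KO and 188 to 298 CPM in WT. Of all these markers, Cd3e alone was at 0 in a library. The part of these cells in the Cycs difference was not tested. In bulk samples, fewer cells of a type and less RNA per cell cannot be told apart.

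The window around the Cycs start, from 250 bases before it to 50 bases from it on, is shown beside those of Atp5k and Sdhd. Like Ndufb3 and Atp5e, these were lower in Ptip_KO by DESeq2 and not by limma. The windows of Ndufb3 and Atp5e are not shown, so letters found in both Atp5k and Sdhd do not stand for the lower members. The sequences are from RefSeq on GRCm38.p6, each on the minus strand: Cycs at chr6:50566520-50566819, Atp5k at chr5:108434350-108434649 and Sdhd at chr9:50603800-50604099. Capitals mark matches, on either strand, to motifs of factors known to act at respiratory chain genes: NRF1 (GCGC, 1 base of any kind, then TGCGC), ETS factors including GABPA (CCGGAAG), the estrogen-related receptors (TNAAGGTCA), the inner NRF1 letters (GCATGCGC, contained in the NRF1 motif where the free base is A) and the cyclic AMP response element (TGACGTCA). The inner NRF1 letters and the cyclic AMP response element were added after the Cycs promoter had been read.
Cycs: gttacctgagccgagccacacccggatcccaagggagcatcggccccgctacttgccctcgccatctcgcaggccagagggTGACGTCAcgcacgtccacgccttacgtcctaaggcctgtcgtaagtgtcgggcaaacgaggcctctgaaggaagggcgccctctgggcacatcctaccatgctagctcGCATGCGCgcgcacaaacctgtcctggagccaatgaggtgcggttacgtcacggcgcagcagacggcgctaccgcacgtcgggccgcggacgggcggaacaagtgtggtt
Atp5k: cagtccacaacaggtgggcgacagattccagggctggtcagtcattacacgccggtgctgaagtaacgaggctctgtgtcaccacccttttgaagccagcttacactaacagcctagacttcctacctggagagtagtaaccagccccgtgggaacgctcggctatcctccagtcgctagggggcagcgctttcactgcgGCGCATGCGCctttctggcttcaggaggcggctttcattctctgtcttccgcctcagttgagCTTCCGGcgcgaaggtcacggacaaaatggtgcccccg
Sdhd: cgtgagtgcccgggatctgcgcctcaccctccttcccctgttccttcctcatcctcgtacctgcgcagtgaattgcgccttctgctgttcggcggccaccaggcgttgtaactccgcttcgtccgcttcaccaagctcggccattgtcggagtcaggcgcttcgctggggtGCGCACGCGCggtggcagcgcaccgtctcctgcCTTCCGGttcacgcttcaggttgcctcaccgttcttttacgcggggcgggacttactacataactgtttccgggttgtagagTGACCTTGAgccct
In the Cycs window, TGACGTCA began at -169 and GCATGCGC at -60, counted from the RefSeq start as 0, and the full NRF1 letters and the ETS letters were not in this window. In the Atp5k window, the NRF1 letters began at -50 and the ETS letters at 12. In the Sdhd window, the NRF1 letters began at -79, the ETS letters at -46 and the receptor letters at 36.

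The same letters were counted at members' promoters, beside all genes with a promoter entry, whether or not they were tested here. RefSeq promoter entries were found for 76 of 93 members. The NRF1 letters were in 19 of 76 (25%), beside 5.19% of all 27025 genes with a promoter entry of this length. The ETS letters were in 18 (23.7%), beside 9.93%, and the YY1 letters (AAGATGGC) were in 11 (14.5%), beside 3.19%. The receptor letters were in 3 (3.95%), beside 1.43%. The inner NRF1 letters were in 13 (17.1%), beside 3.05%, and the cyclic AMP response element in 5 (6.58%), beside 2.03%. The inner NRF1 letters and this element were added after the Cycs promoter was read, and Cycs is counted in their shares. TATAAA was in 5 (6.58%), beside 15.7%. These are matches of letters, and binding was not measured.

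**Figure D3:**
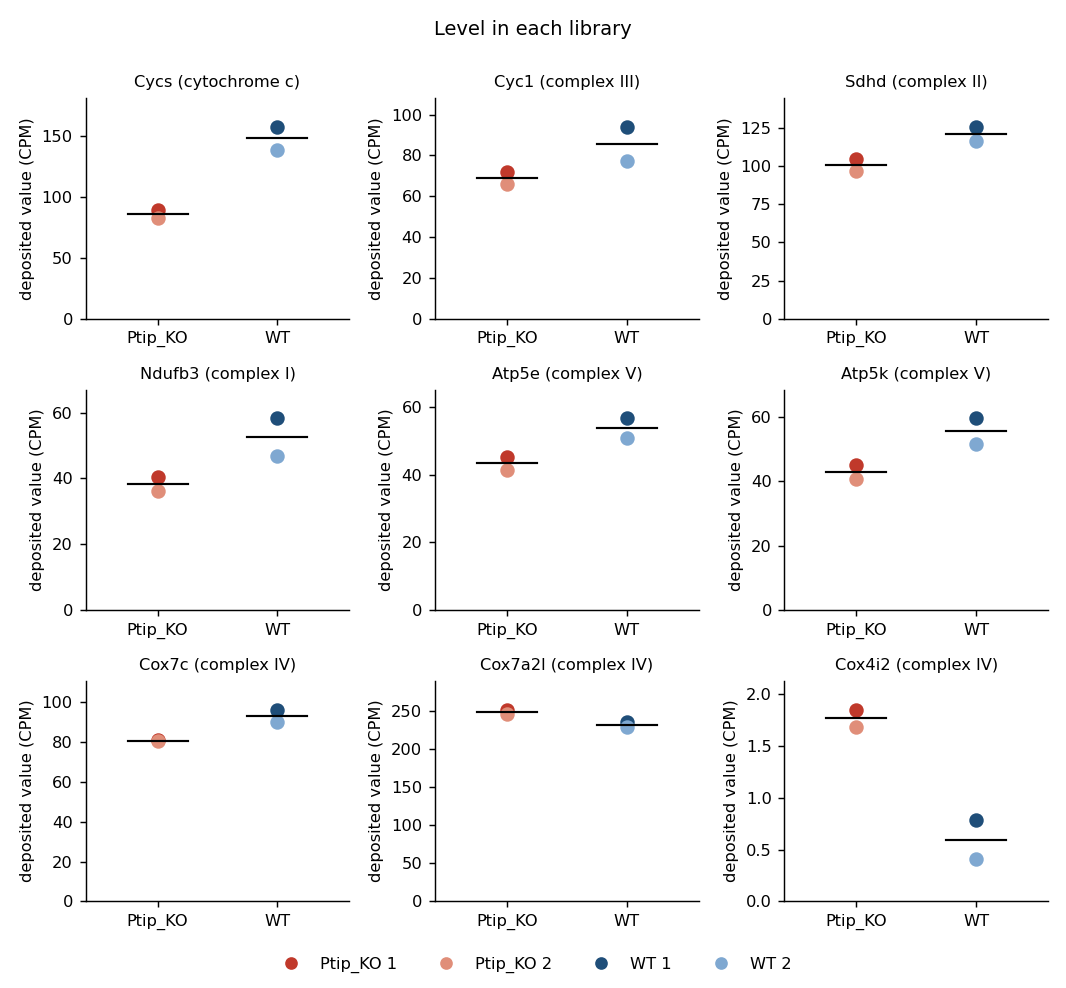
Level in CPM (vertical axis, from 0) of 9 members in each library, with the group mean as a line. The groups do not overlap for any of these genes: Cycs, Cyc1, Sdhd, Ndufb3, Atp5e, Atp5k and Cox7c are lower in Ptip_KO, and Cox7a2l and Cox4i2 are higher, and of these Cycs alone passed the limma test.

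In complex I, 0 of 37 tested members passed the limma test in either direction, the smallest adjusted p was 0.120, and the median log2 fold change was -0.06. The 7 core subunits, which carry the flavin and the iron-sulfur clusters, had differences between -0.12 (Ndufs7) and 0.11 (Ndufs3), with a median of -0.05. The groups overlapped for every core subunit. Of the core subunits, Ndufs3 had the smallest p after Ndufs7, at 54.2 and 50.3 CPM in Ptip_KO against 50.7 and 46.1 in WT.

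The accessory subunits surround this core and had a median log2 fold change of -0.06 over 30 genes. These include Ndufb1-ps, which is annotated as a long noncoding RNA of a bidirectional promoter. Ndufb3, in the membrane arm, had the most negative value: it was at 40.4 and 36.1 CPM in Ptip_KO against 58.3 and 46.9 in WT. The log2 fold change came to -0.44, standard error 0.133 (limma adjusted p = 0.120). It was -0.60 without WT replicate 2, which passed (limma adjusted p = 0.0121), -0.29 without WT replicate 1 (0.209), -0.52 without Ptip_KO replicate 1 (0.214) and -0.36 without Ptip_KO replicate 2 (0.420). Ndufb6, likewise in the membrane arm, was at 22.6 and 20.4 CPM in Ptip_KO against 29.9 and 25.1 in WT (log2 fold change -0.34, limma adjusted p = 0.181). The exons of Ndufb6 overlap those of Smim27 on the opposite strand, as 29 members do with some gene, and whether the counting used strand is not given in the sources used here. Ndufb7 and Ndufb2 also did not overlap between groups, at lower values in Ptip_KO.

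A pair of accessory subunits lay higher in both Ptip_KO libraries, without passing the test. Ndufc2, a membrane arm subunit, was at 40.6 and 35.9 CPM in Ptip_KO against 35.7 and 31.5 in WT (log2 fold change 0.18, limma adjusted p = 0.402). Ndufv3, which sits beside the flavin-carrying subunits, was at 66.3 and 62.8 CPM in Ptip_KO against 59.9 and 57.4 in WT (0.14, limma adjusted p = 0.405). Ndufa13 and Ndufa10, the accessory subunits with the highest CPM before scaling by length, had log2 fold changes of 0.09 and -0.05, and their groups overlapped. Ndufb4c, an annotated pseudogene that the symbol rule takes, was under 1 CPM in every library and was not tested.

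The 8 assembly factors of complex I, which build the complex and are not part of it, had 0 members past the threshold and a median log2 fold change of -0.05. Ndufaf4 had the smallest p, at 13.8 and 13.7 CPM in Ptip_KO against 16.1 and 15.8 in WT (log2 fold change -0.20, limma adjusted p = 0.301). Ndufaf8 and Ndufaf6 were also lower in both Ptip_KO libraries. Ndufaf7, which methylates a core subunit during assembly, and Ndufaf3 had the highest CPM of these factors before scaling by length and overlapped between groups, with log2 fold changes of 0.01 and 0.12.

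Complex II has 4 subunits, and all had negative log2 fold changes, with a median of -0.12 and 0 past the limma threshold. Sdhd, which anchors the enzyme in the membrane, was at 104.5 and 97.1 CPM in Ptip_KO against 126 and 117 in WT. Its groups did not overlap, the log2 fold change was -0.26 and the standard error 0.0913, and the limma adjusted p was 0.158. Sdhc, the other anchor, was at 78.1 and 66.7 CPM in Ptip_KO against 85.3 and 76.0 in WT. The flavoprotein Sdha had a log2 fold change of -0.06 and the iron-sulfur subunit Sdhb one of -0.08, and for these and Sdhc the groups overlapped.

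In complex III, 0 of 9 members passed the limma test, and the median log2 fold change was -0.11. Cyc1, which encodes cytochrome c1, the subunit that hands electrons to cytochrome c, was at 71.7 and 66.2 CPM in Ptip_KO against 94.0 and 77.1 in WT. The groups did not overlap, but the WT libraries lay further apart than the lower WT library lay from Ptip_KO. Its log2 fold change was -0.30 and the standard error 0.121 (limma adjusted p = 0.208), and it rested on single libraries: -0.44 without WT replicate 2, which passed (limma adjusted p = 0.0342), -0.16 without WT replicate 1 (0.482), -0.36 without Ptip_KO replicate 1 (0.416) and -0.24 without Ptip_KO replicate 2 (0.624). The Rieske iron-sulfur protein gene Uqcrfs1 had a log2 fold change of -0.17 and the small subunit gene Uqcrq one of -0.15. The core proteins Uqcrc1 and Uqcrc2 had -0.08 and 0.01, and the groups overlapped for all members but Cyc1.

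Complex IV had the most negative median of the complexes, -0.15 over 14 tested members, and 0 passed the limma test. This median was -0.05 without WT replicate 1. Ndufa4, named after complex I and now assigned to complex IV, was at 84.1 and 81.0 CPM in Ptip_KO against 96.4 and 94.3 in WT (log2 fold change -0.21, limma adjusted p = 0.206). Cox7c was at 81.1 and 80.6 CPM in Ptip_KO against 96.4 and 90.4 in WT (-0.20, limma adjusted p = 0.219). Cox7a2, Cox5a and the X-linked Cox7b were likewise lower in both Ptip_KO libraries, with log2 fold changes of -0.27, -0.19 and -0.16. Cox4i1, the main isoform of subunit 4, overlapped between groups, with a log2 fold change of 0.09. Cox7a2l, a paralogue of Cox7a2 that joins complexes III and IV into supercomplexes, was at 252 and 247 CPM in Ptip_KO against 236 and 229 in WT (0.10, limma adjusted p = 0.522).

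Several complex IV subunits have paralogues used in other tissues, and these were at low levels. Cox4i2, the isoform of subunit 4 best known from lung, was at 1.85 and 1.68 CPM in Ptip_KO against 0.787 and 0.406 in WT, from 141, 118, 58 and 32 reads. It was higher in both Ptip_KO libraries and passed the filter only through them. The log2 fold change was 0.80 and the standard error 0.199 (limma adjusted p = 0.0768). Since the filter took the gene through the group where it is high, this value is a description. Leaving out 1 library gave 0.63 to 0.98, with limma adjusted p-values of 0.0184 to 0.341. Per exon length, Cox4i2 made up 1.16 ± 0.0131% of the sum of Cox4i1 and Cox4i2 in Ptip_KO and 0.410 ± 0.150% in WT (SD, n = 2 each), so Cox4i1 supplied nearly all of this subunit's transcripts in both groups. The muscle isoforms Cox6a2 and Cox7a1 were below the filter. Cox6a2 reached 1.71 CPM in WT replicate 2 and 0.357 to 0.760 CPM in the other libraries. Cox6b2, the testis isoform, was at 6.16 and 7.04 CPM in Ptip_KO against 6.19 and 7.23 in WT.

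In complex V, 0 of 17 members passed the limma test, and the median log2 fold change was -0.09. Leaving out WT replicate 1 gave 0.03, and leaving out WT replicate 2 gave -0.21. Atp5a1 and Atp5b encode the alternating subunits of the catalytic head. Atp5b was at 1186 and 1094 CPM in Ptip_KO against 1358 and 1178 in WT, and Atp5a1 was at 1140 and 1011 CPM against 1249 and 1051. For both the groups overlapped, with log2 fold changes of -0.15 and -0.09. Atp5e, the smallest subunit of the central stalk, was at 45.2 and 41.4 CPM in Ptip_KO against 56.7 and 50.9 in WT, with no overlap (log2 fold change -0.31, limma adjusted p = 0.146).

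Atp5k, which encodes the e subunit that helps ATP synthase form dimers, was at 44.99 and 40.6 CPM in Ptip_KO against 59.5 and 51.6 in WT. The groups did not overlap, and the log2 fold change was -0.37 and the standard error 0.111 (limma adjusted p = 0.121). The value without WT replicate 2 was -0.47, which passed (limma adjusted p = 0.0334). It was -0.27 without WT replicate 1 (0.238), -0.44 without Ptip_KO replicate 1 (0.255) and -0.30 without Ptip_KO replicate 2 (0.497). Atp5f1, in the peripheral stalk, and Atp5g1 were also lower in both Ptip_KO libraries, with log2 fold changes of -0.25 and -0.19. Atp5g1, Atp5g2 and Atp5g3 encode the same mature c subunit of the rotor. Per exon length, they made up 16.3 ± 0.202%, 50.6 ± 0.682% and 33.0 ± 0.480% of their sum in Ptip_KO and 18 ± 0.567%, 47.9 ± 1.34% and 34.1 ± 1.91% in WT (SD, n = 2 each). The share of Atp5g1 was lower, and that of Atp5g2 higher, in both Ptip_KO libraries than in either WT library. Atp5s, a coupling factor, was at 3.72 and 4.04 CPM in Ptip_KO against 2.88 and 3.63 in WT (log2 fold change 0.20, limma adjusted p = 0.50).

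Scaled by exon length, member levels spanned a wide range within each complex. Per kilobase of exon in WT, the median level was 81.4 CPM for complex IV, 69.3 for complex III, 64.4 for complex V, 64.1 for complex II, 43.4 for Cycs, 38.4 for complex I and 6.06 for the complex I assembly factors. In Ptip_KO the same medians were 71.6, 63.3, 54.1, 60.9, 25.1, 35.8 and 5.79 CPM per kilobase, so Cycs and complex I changed places. The complex V median was the value of Atp5f1 in both groups, so its place beside complex II follows that gene. The median log2 fold change of complex V was -0.09. The highest WT levels per kilobase were 367 CPM for Atp5a1, 362 for Cox8a and 299 for Atp5b. Exon length here joins all annotated exons of a gene, which lowers the value of genes with long rare exons. Across the 90 tested members the log2 fold change had a Spearman correlation of 0.09 with exon length, and across 11131 tested protein-coding genes of 0.03, where the genes share the same 4 libraries. Of the 3 X-linked members, Cox7b, Ndufa1 and Ndufb11, none passed the limma test. WT replicate 2, the library with Xist, was below WT replicate 1 for each, as it was for 89 of all 93 members.

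**Figure D4:**
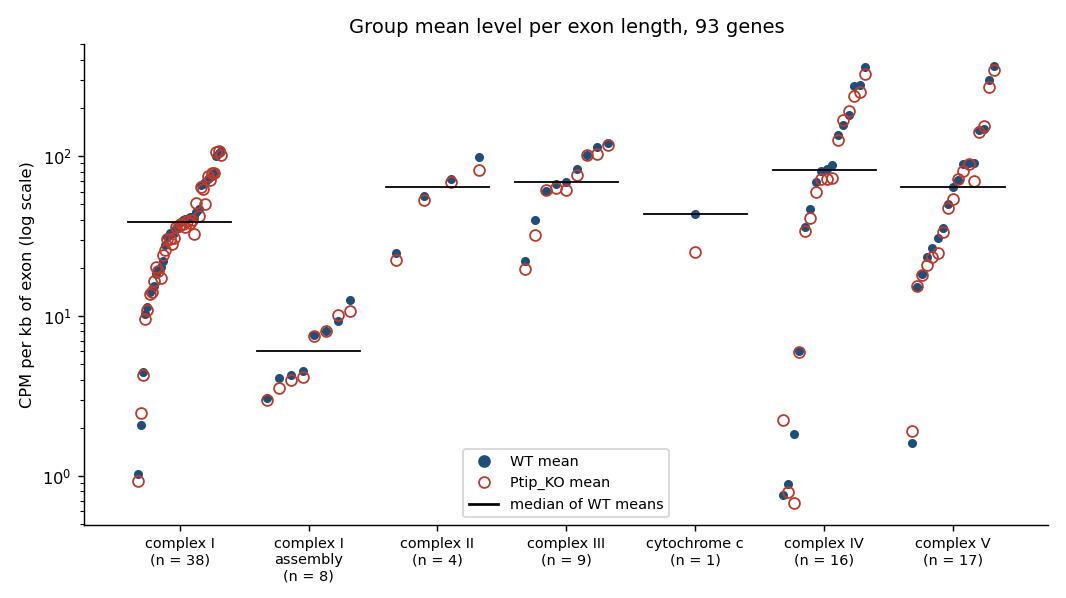
Group mean level in CPM per kilobase of exon (vertical log axis) of the 93 members by complex, ordered within a complex by the WT level, with filled points for WT, open rings for Ptip_KO and a line at the median of the WT means. Rings and points nearly coincide for most members, and the ring of Cycs lies at 25.1 against 43.4 CPM per kilobase in WT.

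Other mitochondrial genes were read from 7 lists by role, each without a test of the list. In the tricarboxylic acid cycle, which supplies the chain with NADH and succinate, 0 of 18 tested genes passed the limma test and the median log2 fold change was -0.02. None passed among 37 assembly factors outside the symbol rule (median 0.00), 25 genes of mitochondrial DNA transcription and maintenance (-0.04), 12 nuclear regulators of mitochondrial genes (-0.06), 27 genes of protein import and the outer membrane (-0.13) or 25 genes of coenzyme Q, carriers and other electron inputs (-0.09). Of all tested genes, 6.29% passed the limma test in either direction. Among 8 antioxidant genes 1 passed, Prdx5, a peroxiredoxin that reduces peroxides. It was at 232 and 207 CPM in Ptip_KO against 363 and 313 in WT, and fell by 0.62 on the log2 scale (limma adjusted p = 0.0406). The call was lost without Ptip_KO replicate 1 (limma adjusted p = 0.0795) or replicate 2 (0.183), and over the other settings adjusted p-values lay between 7.40e-07 (DESeq2) and 0.0431 (pseudocount 5). At an unadjusted limma p under 0.05 the lists held 3, 1, 0, 3, 6, 2 and 1 genes in this order, beside 23.8% of all tested genes.

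A few of these genes had adjusted p-values just above the threshold. Hspd1, the mitochondrial chaperonin that folds imported proteins, was at 194 and 202 CPM in Ptip_KO against 275 and 256 in WT (log2 fold change -0.42, limma adjusted p = 0.0547), and edgeR called it. DESeq2 called 3 genes of the cycle (2 higher), 3 regulators (1 higher), 4 import genes, 1 carrier and 2 antioxidant genes, and none of the other lists, beside 15.4% of all tested genes. The regulators called include Pparg, which passed the filter only through WT, where it was higher. Its part in the counts of this paragraph is therefore a description. Myc, a transcription factor known to act on many mitochondrial genes, averaged 85.0 CPM in Ptip_KO against 116 in WT (-0.44, limma adjusted p = 0.0546). Of the listed factors whose motif letters are given above, Nrf1 had a log2 fold change of -0.11, Gabpa of 0.04, Esrra of -0.20 and Yy1 of -0.01, and none passed the limma test (adjusted p = 0.630, 0.873, 0.258 and 0.981). The list holds no factor of the cyclic AMP response element. Lower without overlap were 6 of 18 genes of the cycle, 7 of 37 assembly factors, 9 of 25 genes of mitochondrial DNA transcription and maintenance, 4 of 12 regulators, 17 of 27 import genes, 10 of 25 genes of coenzyme Q and carriers and 3 of 8 antioxidant genes, beside 27.3% of all tested genes.

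**Figure D5:**
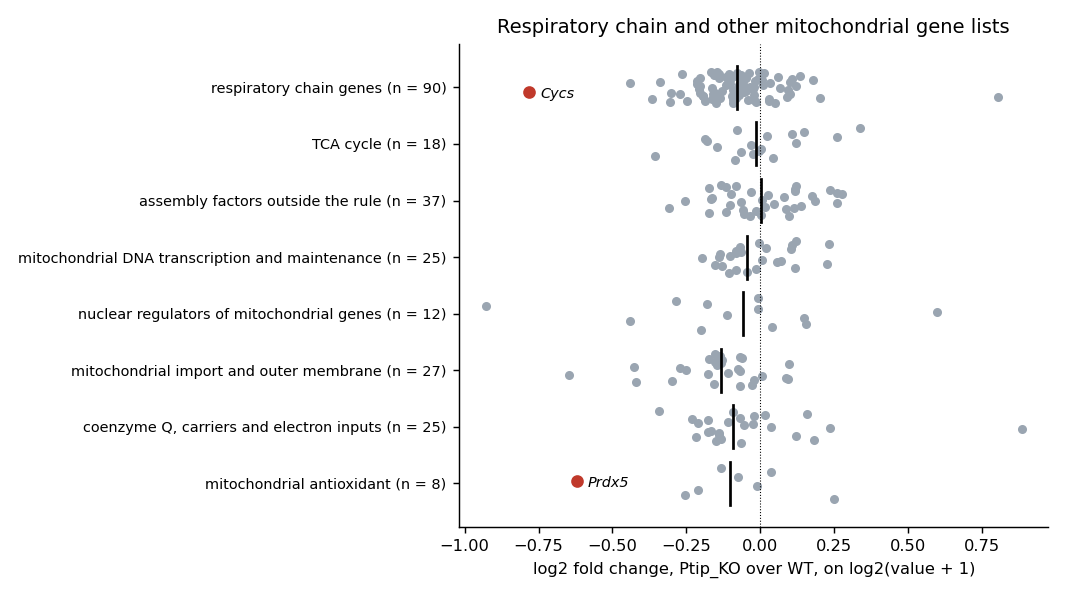
Log2 fold change (horizontal axis, log2(CPM + 1) scale) of each tested gene of the respiratory chain and of 7 other mitochondrial lists, with the list's median as a black line. Red points passed the limma test: Cycs at -0.78 and Prdx5 at -0.62.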

How the data were processed

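Per the labels' protocols, the kit was Illumina TruSeq Stranded mRNA. Tools named in the submitters' processing notes are TopHat2 2.0.10, HTSeq 0.6.0, and edgeR 3.8.6, with the build mm10, without roles; whether counting used strand is not given in the sources used here. The authors deposited a normalized signal for each gene, which their name for the table calls edgeR CPM on the effective library size, so column sums differ. One WT column was matched to WT replicate 2 by the sample's description. Every value was a whole multiple of a step, so whole reads were recovered (100% of values within 0.01 read); edgeR 4.0.16 called 660 genes on them.

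The filter kept genes reaching 1 CPM in 2 or more libraries. The test was limma 3.58.1 (R 4.3.3, trended variance prior) on log2(CPM + 1), genotype as the only term, 2-sided, and Benjamini-Hochberg adjustment over 12357 genes at 0.05. The scale understates changes of low genes. Alternatives were pseudocounts of 0.25 and 5, no filter or 5 CPM, a common sum, median-of-ratios factors, a robust prior, a replicate block, edgeR, DESeq2 1.42.0 and limma-voom on recovered reads, each library left out, and members left out by class. Copies are transcripts that share 95% identity with a member over 200 or more bases and 50% of the shorter one (BLAST 2.17.0). Positions are from GENCODE M21.

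The members and lists were chosen with earlier results of these data known. Named members are those past the threshold, the 3 with the smallest p and the 2 with the highest mean CPM in each class, paralogue isoforms, Paxip1 and list genes past the threshold. A member and a marker that this rule or the lists take are not reported here by name. Others, including Ndufc2, Ndufv3, Atp5s, Ndufb2, Hspd1, Myc, Nrf1, Gabpa, Yy1, Kit, Flt3, Padi4, Mpo and Esrra, were named after their values were seen. Tested on simulated data for Ptip_KO against WT, with 12357 genes, limma recovered 34.3% of genes changed 1.5-fold, 65.3% changed 2-fold and 95.1% changed 4-fold, with 3 false calls.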

Additional observations from a re-analysis of the deposited data

How the results depend on the processing

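Over all tested genes the count past the threshold was 777 and became 1906 with DESeq2, 1721 with the replicate block, and 452 to 1620 with 1 library left out (452 and 476 without Ptip_KO replicate 1 or 2, 1495 and 1620 without WT replicate 1 or 2). Members lower in Ptip_KO numbered 1 and became 5 with DESeq2, 5 with the replicate block, 1 to 4 with 1 library left out, and 0 when members with a near-identical copy were left out, since Cycs has such copies. Members higher numbered 0 and became 1 (Cox4i2) with DESeq2 and with the replicate block. Cox4i2 passed the filter only through Ptip_KO, where it is high, so this count is a description. With 1 library left out, the median log2 fold change ranged from -0.17 to 0.01 over the members, from -0.13 to 0.042 for the median of the complex I assembly factors, from -0.23 to -0.050 for complex IV, and from -0.21 to 0.030 for complex V. Replicate 1 and replicate 2 deviated alike in both groups (r = 0.33 across 12357 genes and 0.55 across 90 members), but 2 pairs that share only a number are not taken as paired, and a group of 2 with 1 library left out assumes that the lone library varies like the other group. The named genes kept their direction and side of the threshold in 606 comparisons with an alternative, passed the threshold anew in 14, and changed sign without a call in 24. The planned results on genes encoded in mitochondrial DNA, and the rescaling that leaves those genes out, were not run. Groups of 2 libraries limit the limma test.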

Other observations

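Beside the members of the symbol rule, ATP synthase has partners under other symbols. Usmg5, a small subunit of the membrane part that the rule does not take, was at 64.9 and 60.8 CPM in Ptip_KO against 74.4 and 66.1 in WT, with no overlap and a log2 fold change of -0.16 (limma adjusted p = 0.403). Atpif1, the inhibitor that stops the enzyme from hydrolysing ATP, was at 165 and 153 CPM in Ptip_KO against 161 and 157 in WT, and its groups overlapped (limma adjusted p = 0.979). Ucp2, an inner membrane carrier of the uncoupling protein family, averaged 510 CPM in Ptip_KO against 649 in WT (log2 fold change -0.34, limma adjusted p = 0.202). Coq8a, which is needed for coenzyme Q synthesis, averaged 12.2 CPM in Ptip_KO against 6.44 in WT (0.89, limma adjusted p = 0.126).

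In the tricarboxylic acid cycle, 3 genes had an unadjusted limma p under 0.05 without passing the adjusted threshold. Suclg2, a subunit of the GTP-forming succinyl-CoA ligase, averaged 62.8 CPM in Ptip_KO against 49.5 in WT (log2 fold change 0.34, limma adjusted p = 0.0850). Pdha1, of the pyruvate dehydrogenase complex, averaged 188 and 157 CPM (0.26, limma adjusted p = 0.13), while Dlat, of the same complex, averaged 50.5 and 64.9 CPM (-0.35, limma adjusted p = 0.0954). Among the regulators, Nrip1, a corepressor of mitochondrial genes, averaged 80.3 CPM in Ptip_KO against 52.2 in WT (0.60, limma adjusted p = 0.0615), and Pparg, which passed the filter only through WT, averaged 0.690 and 2.21 CPM. These genes were named after their values were seen.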
